A study of Arabidopsis thaliana with 16 samples.

Results

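RNA of fust1 mutant seedlings was compared with that of wild-type seedlings grown without heat, over all genes. The comparison rests on 4 of the 16 libraries of the study, 2 of fust1 and 2 of the wild type Col-0, all from seedlings at 22 °C. Of 27628 genes counted, 19340 had enough counts to be tested. Every group of the study was made of 10-day-old Arabidopsis thaliana seedlings, either Col-0 or fust1, at 22 °C or at 37 °C, with RNA-seq (poly(A) RNA) and Ribo-seq (RNA fragments covered by ribosomes, called footprints) for each. The labels do not describe the fust1 allele or how many lines carry it. No gene named FUST1 was matched, so the mutated gene is not analysed here and could not serve as a check of the genotype labels.

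Several of the genes described below belong to 2 known systems. The first is the small RNA pathway, in which ARGONAUTE1 (AGO1) carries microRNAs to the RNAs they repress; SQUINT (SQN), also called cyclophilin 40, is an HSP90 co-chaperone that promotes AGO1 activity, and plants without it change from juvenile to adult leaves early because SPL transcription factors, targets of miR156, escape repression. The second is the group of genes that plants switch on within minutes of touch, wounding, a calcium signal or a microbial elicitor. These encode ethylene response factors (ERF), zinc finger proteins (ZAT, SZF) and WRKY factors, and their RNAs are short-lived.

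The 4 libraries held between 9402134 and 12737375 counts. The replicates are called biological, without saying what kept them apart, so p-values measure the spread between these samples. The 2 fust1 libraries differed from each other as much as the genotypes did. The median absolute log2 difference per gene was 0.29 between the fust1 libraries and 0.22 between the Col-0 libraries, and 0.23 to 0.28 between a fust1 and a Col-0 library. Between the fust1 libraries 1883 genes lay at least 2-fold apart, against 826 between the Col-0 libraries and 976 to 2012 across genotypes. All 44 nuclear photosynthesis genes listed had counts in each of the 4 libraries, and so did all 17 root markers except EXPA7, a root hair expansin with 0 counts in fust1 replicate 1.

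In fust1 at 22 °C, one gene was lost and a small set of fast stress genes was raised. SQN had no count in either fust1 library, and LCBK2, a kinase of sphingolipid long-chain bases, fell to 0.294 of its wild-type mean. WRKY33, SZF1, ERF-1, ERF2, ZAT6 and the heat shock factor HSFA2 rose, as did 3 genes without a symbol, AT5G41750, AT4G12490 and AT1G64795. With edgeR's quasi-likelihood test and Benjamini-Hochberg adjustment, 11 genes (0.0569 % of those tested) were called at an adjusted p under 0.05, of which 9 were higher (0.0465 %) and 2 lower (0.0103 %). At an unadjusted p under 0.05 there were 481 higher (2.49 %) and 191 lower (0.988 %).

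Both the number of calls and the genes called depended on the settings, except for SQN, which was called under each of them. Over 10 other settings of the fit, LCBK2 and AT1G64795 were called in 4, ZAT6 in 5, WRKY33, SZF1, ERF2 and HSFA2 in 6, ERF-1 and AT5G41750 in 7 and AT4G12490 in 8. The main fit held all 8 RNA libraries at both temperatures. A fit of the 4 libraries at 22 °C alone called 88 genes higher (0.465 % of 18919) and 10 lower (0.0529 %), among them all 11, and DESeq2 called 77 higher (0.532 % of 14465) and 6 lower (0.0415 %), among them 10 of the 11. Leaving out Col-0 replicate 1 or replicate 2 at 22 °C left 1 call in each case, SQN. Without fust1 replicate 1 there were 2 calls, and without fust1 replicate 2 there were 22. The Col-0 pair at 37 °C lay far apart (median 0.42). Without its replicate 1 or 2 the fit gave 66 or 67 calls at 22 °C, and without fust1 replicate 1 or 2 at 37 °C it gave 5 in both cases.

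**Figure D1:**
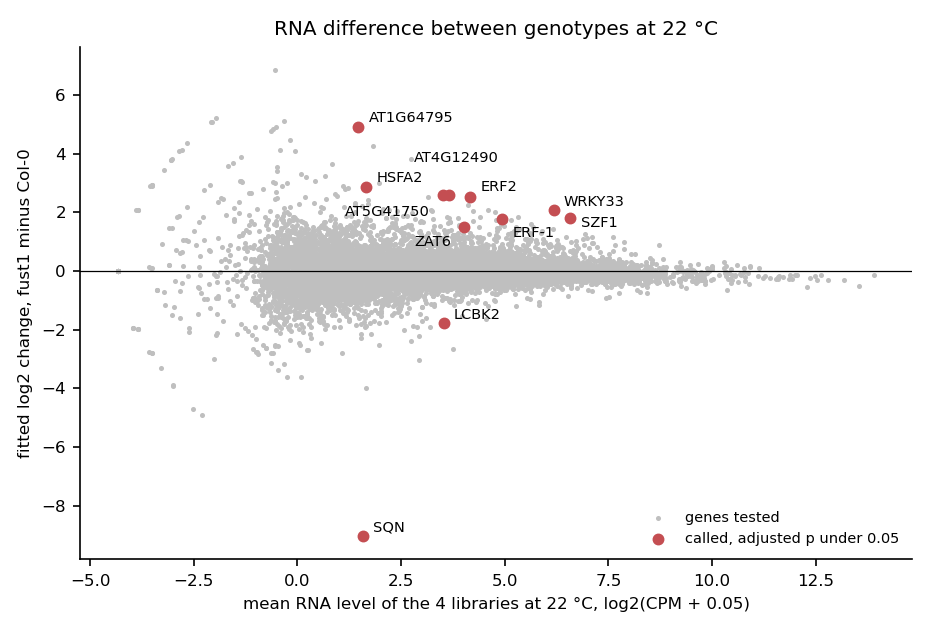
Fitted log2 difference in RNA between fust1 and Col-0 at 22 °C (vertical axis) against the mean level of the 4 libraries on a log2 scale (horizontal axis, CPM, counts scaled to library size) for the 19340 genes tested, with the 11 called genes in red. SQN stands alone at the bottom, where its position depends on the prior count because fust1 had no count, and 9 called genes lie above 0.

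SQN was the gene with the clearest difference. It had 80 and 100 counts in the Col-0 libraries, or 6.14 and 5.56 CPM (counts scaled to library size by TMM), and 0 and 0 in the fust1 libraries. Against a floor of 3 counts over the fust1 group, its RNA was at least 53.6-fold lower in fust1 (adjusted p = 0.000464), and it stayed called under the 10 settings above and with any one RNA library at 37 °C left out. Floors cover counting error only.

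The other readouts showed the same loss. Footprints on SQN numbered 176 and 138 in Col-0 and 0 and 1 in fust1 (adjusted p = 3.16e-09). At 37 °C, where the Col-0 libraries held 511 and 387 counts, the fust1 libraries held 3 and 2 (log2 change -7.53 ± 0.36 SE, adjusted p = 1.62e-05). The genes examined on either side of SQN were not called. SQN also overlaps a pseudogene, AT2G15800, that was not examined. AT2G15770 and AT2G15780 on one side had no count in any of the 4 libraries and were not tested. On the other side OTP51, which encodes a plastid RNA-splicing protein, had 273 and 354 counts in Col-0 and 252 and 218 in fust1 (log2 change -0.24 ± 0.25, adjusted p = 1), and AT2G15830 had 22 and 44 against 43 and 43 (0.59 ± 0.64, adjusted p = 1).

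LCBK2 was the other gene that fell. Its level was 17.2 and 18.2 CPM in Col-0 and 6.0 and 4.4 CPM in fust1, a log2 change of -1.77 ± 0.26 (SE; adjusted p = 0.0474). Both fust1 libraries were below both Col-0 libraries. Its footprints fell too, from 4.52 and 3.52 CPM to 0.479 and 0.769 CPM (log2 change -2.67 ± 0.42, adjusted p = 0.000286). At 37 °C the RNA difference was -1.42 ± 0.26 with an adjusted p of 0.0913. The annotated span of LCBK2 overlaps that of its neighbour AT2G46100 by 1 base, and the neighbour was not called (0.30 ± 0.27, adjusted p = 1).

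**Figure D2:**
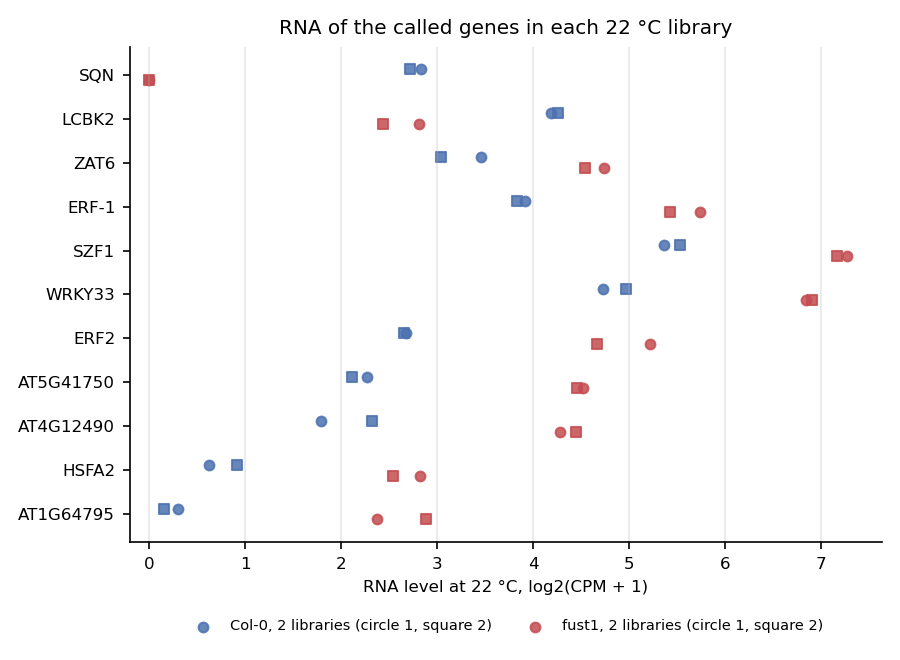
RNA level of each of the 11 called genes in the 4 libraries at 22 °C, on a log2 scale of CPM plus 1, with Col-0 in blue and fust1 in red, and circles for replicate 1 and squares for replicate 2. The genotypes do not overlap for any of the 11 genes, and both fust1 libraries sit at 0 for SQN.

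WRKY33, a transcription factor needed for defence against necrotrophic fungi and for camalexin synthesis, had 25.5 and 30.2 CPM in Col-0 and 114 and 119 CPM in fust1. Its log2 change was 2.06 ± 0.26 (adjusted p = 0.0232). The 2 fust1 libraries lay close together and far above Col-0. WRKY33 shares 26 bases of annotated span with AT2G38480, which was not called (-0.71 ± 0.53, adjusted p = 1), and it also overlaps a long noncoding RNA gene, AT2G08965, that was not examined.

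SZF1, a CCCH zinc finger protein of the salt response, stood at 40.0 and 45.1 CPM in Col-0 and at 153 and 143 CPM in fust1, which is a log2 change of 1.80 ± 0.24 (adjusted p = 0.0309). ERF-1, an ethylene response factor that activates defence genes, went from 14.1 and 13.2 CPM to 52.4 and 41.8 CPM (1.78 ± 0.21, adjusted p = 0.0118). ERF2, a related activator, went from 5.37 and 5.28 CPM to 36.2 and 24.3 CPM (2.50 ± 0.35, adjusted p = 0.0353). For all 3, each fust1 library was above both Col-0 libraries, and in CPM the fust1 libraries lay further apart than the Col-0 libraries. ZAT6, a C2H2 zinc finger factor of abiotic stress responses, had 9.97 and 7.23 CPM in Col-0 and 25.6 and 22.2 CPM in fust1 (1.48 ± 0.22, adjusted p = 0.0474). ERF6, the neighbour of ERF-1, also stood higher in fust1. It had 7.98 and 10.4 CPM in Col-0 and 32.2 and 33.7 CPM in fust1, without overlap, although it missed the threshold (1.84 ± 0.29, adjusted p = 0.0683).

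HSFA2, the factor that prolongs the heat response in heated plants, was low in both genotypes at 22 °C. It had 7 and 16 counts in Col-0 and 80 and 69 in fust1, or 0.537 and 0.890 CPM against 6.08 and 4.82 CPM (log2 change 2.87 ± 0.37, adjusted p = 0.0232). Its footprints overlapped between genotypes, with 30 and 4 counts in Col-0 and 14 and 35 in fust1 (0.27 ± 0.54, adjusted p = 0.868).

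Of the genes without a symbol, AT5G41750 had 3.84 and 3.34 CPM in Col-0 and 21.9 and 20.9 CPM in fust1 (log2 change 2.58 ± 0.29, adjusted p = 0.0118). Its neighbour AT5G41740 had 112 and 158 counts in Col-0 and 387 and 398 in fust1 (1.72 ± 0.29, adjusted p = 0.0938). AT4G12490 had 2.45 and 4.0 CPM against 18.46 and 20.8 CPM (2.58 ± 0.28, adjusted p = 0.0118). It lies in a cluster of like genes, and its annotated span overlaps AT4G12495, which had no count, by 282 bases. AT1G64795 had 3 and 2 counts in Col-0 and 55 and 91 in fust1 (log2 change 4.92 ± 0.67, adjusted p = 0.0323), and 2 and 0 against 65 and 75 at 37 °C (5.94 ± 0.78, adjusted p = 0.0355). It overlaps ILA (AT1G64790) by 270 bases, and ILA was not called (0.09 ± 0.21, adjusted p = 1). No footprint was counted on AT1G64795 in any of the 4 Ribo-seq libraries at 22 °C. The sources used here do not state whether counting used strand, so reads of overlapping genes could not be told apart.

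Most fast genes that were not called also stood higher in fust1. The gene lists were written with earlier results of these data known. List counts and medians, here and below, are therefore descriptions and not independent evidence of a shift. Of the 35 genes listed for fast touch, wound and calcium responses, 34 were tested, and SZF1, ZAT6 and ERF2 were called higher and 0 lower. In 27 of the 34, both fust1 libraries were above both Col-0 libraries, which was so for 17.3 % of all genes tested, and in 2 they were below, against 17.1 %. Those 2 were the cold factors CBF2 (-1.10, adjusted p = 1) and CBF3 (-0.80, adjusted p = 1). The median log2 change of the list was 1.12, beside 0.00 for all genes, and lay between 1.01 and 1.13 under the other settings run. Summed over the list, levels were 495 and 575 CPM in Col-0 and 1291 and 1114 CPM in fust1. The 4 libraries fitted alone called 13 members higher and 0 lower, and so did DESeq2. Of all genes the 4 libraries called 0.465 % higher and DESeq2 0.532 %. In the fit of all 8 libraries 22 of the 34 had an unadjusted p under 0.05, all of them higher, beside 2.49 % of all genes.

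Genes of salicylic acid and defence showed a smaller shift. Of 25 tested, WRKY33 alone was called, 15 had fust1 libraries above Col-0 without overlap and 2 below, beside 17.3 % and 17.1 % of all genes. The median was 0.80, and 0.47 to 1.00 under the alternatives. WRKY40, a factor that dampens defence, had 4.22 and 7.62 CPM in Col-0 and 28.5 and 28.2 CPM in fust1 (log2 change 2.25 ± 0.38, adjusted p = 0.108). The regulator SARD1 had 1.07 and 0.945 CPM against 6.99 and 3.77 CPM (2.4 ± 0.49, adjusted p = 0.237). FRK1, a receptor-like kinase gene used as a marker of elicitor responses, had 5.68 and 5.51 CPM against 19.2 and 12.99 CPM (1.52 ± 0.35, adjusted p = 0.29), and its footprints rose by 1.22 on the log2 scale (adjusted p = 0.00176). None of these 3 overlapped between genotypes, although none was called in RNA.

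Sulfur genes were the other list with a median near 1. None of its 13 members was called, yet in 10 both fust1 libraries were above both Col-0 libraries and in 0 they were below (17.3 % and 17.1 % of all genes), with a median of 0.96 (0.91 to 1.14 under the alternatives). SDI2, a gene induced by sulfur deficiency, had 13.5 and 16.6 CPM in Col-0 and 40.0 and 42.2 CPM in fust1 (1.45 ± 0.27, adjusted p = 0.119). GGCT2;1, which breaks down glutathione, had 6.90 and 7.28 CPM against 20.7 and 17.0 CPM (1.41 ± 0.25, adjusted p = 0.114). APR3, which reduces activated sulfate, had 83.1 and 60.5 CPM against 196 and 147 CPM (1.26 ± 0.29, adjusted p = 0.306). With the 4 libraries alone 6 members were called higher, beside 0.465 % of all genes, and with DESeq2 5, beside 0.532 %. Footprints were called higher for 5 of the 13, namely APR2, APR3, BGLU28, GGCT2;1 and LSU2, and lower for 0, beside 2.31 % and 2.07 % of all genes tested for footprints.

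**Figure D3:**
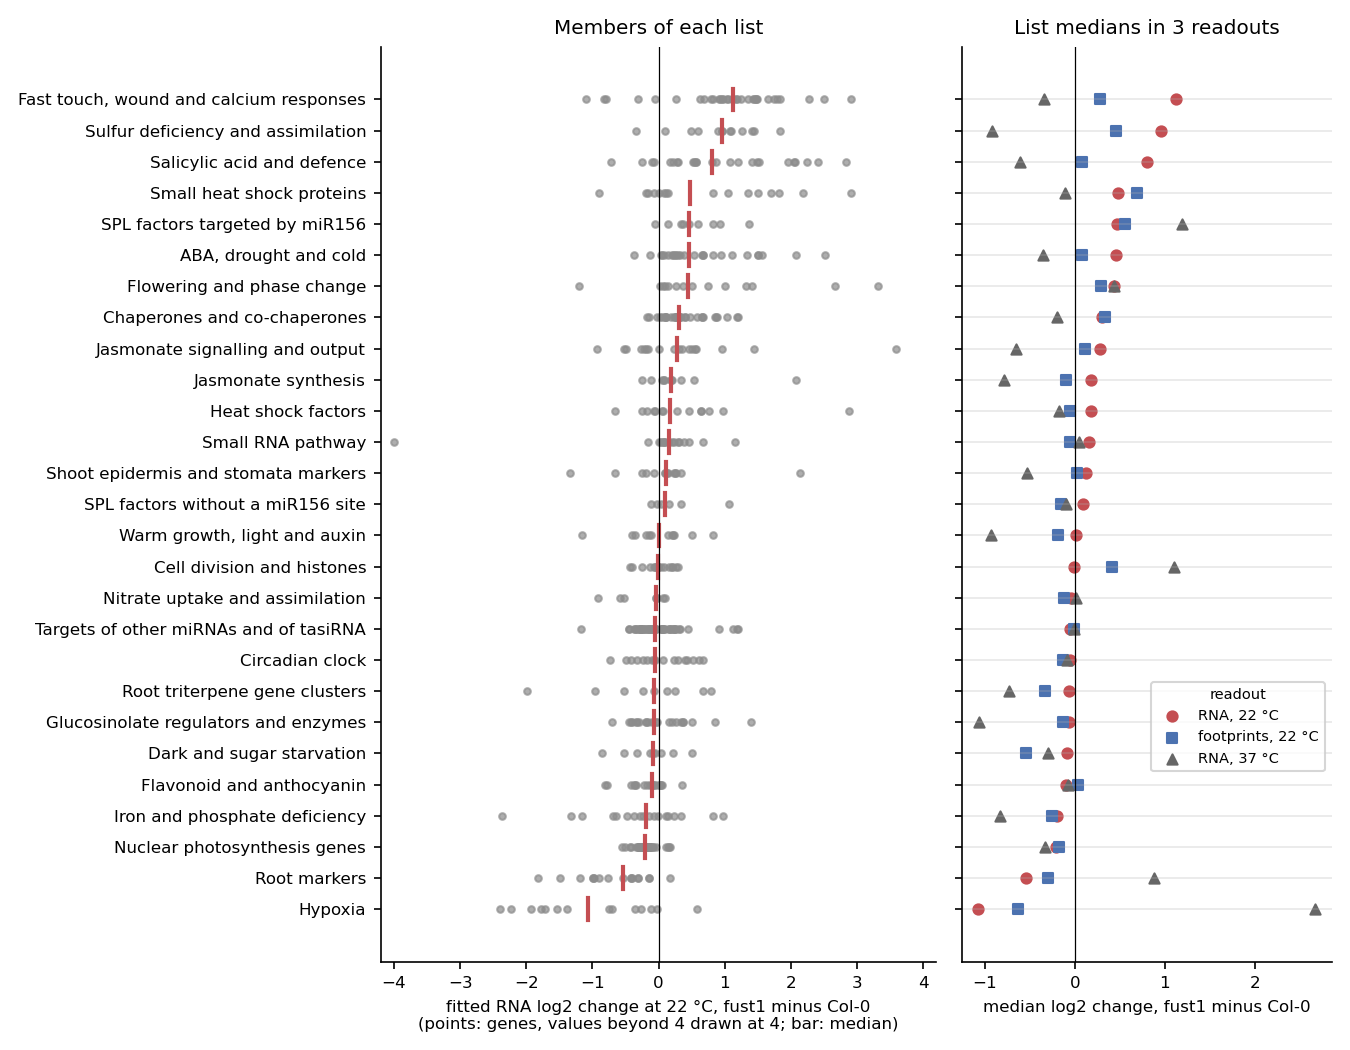
Left, fitted RNA log2 difference at 22 °C (fust1 minus Col-0) of each tested member of the 27 gene lists, with the list median as a red bar; values beyond 4 are drawn at 4. Right, list medians for RNA at 22 °C (circles), footprints at 22 °C (squares) and RNA at 37 °C (triangles). The fast response and sulfur medians are at 1.12 and 0.96 in RNA at 22 °C and below 0 at 37 °C, and the hypoxia median is at -1.07 and 2.67.

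RNAs under small RNA control were examined next. Whether SQN is the mutated gene, a second lesion or a difference in the background of the line was not tested, so the values below belong to the fust1 line as sequenced. AGO1, itself repressed by miR168, had 117 and 123 CPM in Col-0 and 301 and 235 CPM in fust1, a log2 change of 1.16 ± 0.22 that missed the threshold (adjusted p = 0.119) and passed it with the 4 libraries alone (0.0212) and with DESeq2 (0.00012). The genotypes did not overlap. AGO1 footprints rose, from 139 and 153 CPM to 369 and 356 CPM (1.32 on the log2 scale, adjusted p = 1.12e-06). Apart from SQN, none of the 17 small RNA pathway genes tested was called in RNA, and the list's median was 0.16.

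Of the 11 SPL genes targeted by miR156, 9 were tested and none was called, while SPL13A and SPL13B had no count in the 4 libraries. In 6 of the 9 both fust1 libraries were above both Col-0 libraries, and in 0 below, beside 17.3 % and 17.1 % of all genes. SPL3, a small factor that promotes flowering, had 3.53 and 5.12 CPM in Col-0 and 10.7 and 11.7 CPM in fust1 (1.36 ± 0.32, adjusted p = 0.312). SPL9, which promotes adult leaf traits, had 9.13 and 14.0 CPM against 18.2 and 16.8 CPM (0.60 ± 0.44, adjusted p = 1). The same order was seen in SPL2, SPL4, SPL5 and SPL11, with log2 changes of 0.36, 0.93, 0.82 and 0.34. SPL6, SPL10 and SPL15 overlapped between genotypes. The median over the 9 was 0.46, and over the 6 SPL genes without a miR156 site it was 0.09, where SPL8 and SPL14 were above Col-0 without overlap and SPL1, SPL7, SPL12 and SPL16 overlapped. In footprints the targeted genes had a median of 0.56 over 7 tested and 0 calls, and those without a site had -0.15 with SPL12 called lower (-0.56, adjusted p = 0.0443).

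Targets of other microRNAs and of tasiRNAs were more often below Col-0 than above it. Of 53 tested, 0 were called, 6 were higher and 18 lower without overlap, beside 17.3 % and 17.1 % of all genes, and the median was -0.05. The members with the smallest p-values were mostly higher. The superoxide dismutase genes CSD1 and CSD2, targets of miR398, were both higher: CSD1 had 7.59 and 10.2 CPM in Col-0 and 18.46 and 22.4 CPM in fust1 (1.2 ± 0.27, adjusted p = 0.274). CSD2 had 8.28 and 13.4 CPM against 23.3 and 24.2 CPM (1.12 ± 0.29, adjusted p = 0.427). PHO2, a ubiquitin-conjugating enzyme of phosphate signalling targeted by miR399, had 61.4 and 46.7 CPM against 117 and 86.7 CPM (0.92 ± 0.22, adjusted p = 0.337). Footprints of these 3 rose, with log2 changes of 1.04, 1.16 and 0.65 (adjusted p = 0.0164, 0.00304 and 0.0401). The list as a whole did not rise in footprints. Of 48 tested, 3 were called higher and 1 lower, beside 2.31 % and 2.07 % of all genes. Without overlap 14 were above Col-0 and 18 below, beside 25.1 % and 29.6 %, and the median was -0.007. SNZ, a floral repressor targeted by miR172, had 14.9 and 23.0 CPM in Col-0 and 10.2 and 6.64 CPM in fust1 (-1.17 ± 0.32, adjusted p = 0.485).

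**Figure D4:**
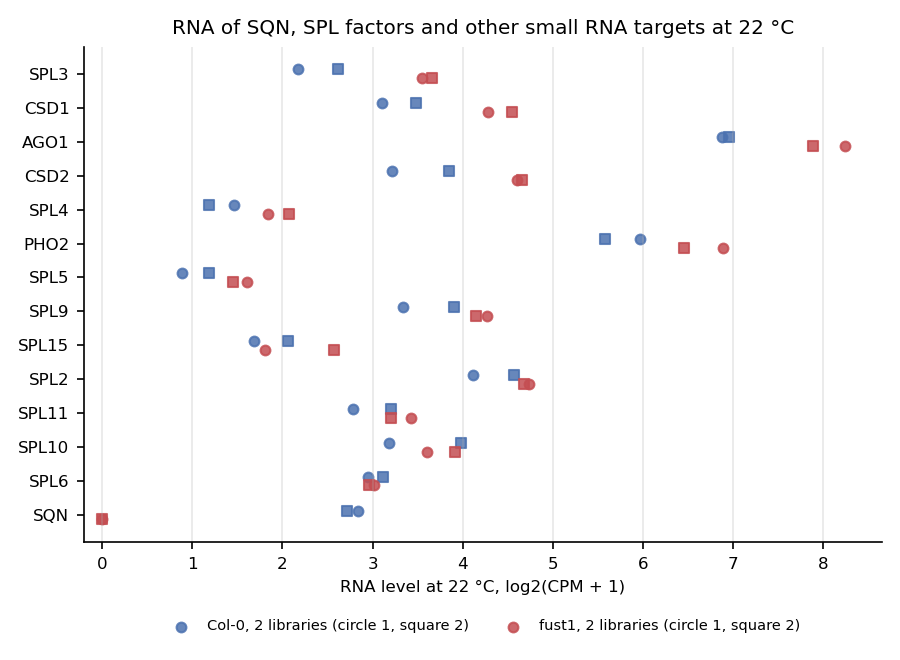
RNA level in the 4 libraries at 22 °C, on a log2 scale of CPM plus 1, for SQN, AGO1, the 9 tested SPL genes targeted by miR156, and CSD1, CSD2 and PHO2, ordered by log2 change; Col-0 is blue and fust1 red, circles are replicate 1 and squares replicate 2. SPL6, SPL10 and SPL15 overlap between genotypes and the others do not.

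Genes listed for flowering and phase change leaned higher, promoters as well as repressors of flowering. Of the 14 tested, 13 had an RNA log2 change above 0, beside 9727 of all 19340 genes tested. Of 14 tested flowering and phase change genes 0 were called, 7 were higher and 1 lower without overlap (17.3 % and 17.1 % of all genes), with a median of 0.44. TEM1, which represses the florigen gene, had 32.7 and 31.5 CPM in Col-0 and 68.3 and 61.0 CPM in fust1 (1.01 ± 0.19, adjusted p = 0.119), and its footprints rose by 1.04 (adjusted p = 0.00138). MAF5, a MADS factor of the FLC group, had 5 and 0 counts in Col-0 and 23 and 27 in fust1, with an adjusted p of 0.666. Its footprints numbered 1 and 0 against 29 and 36 and were called higher (adjusted p = 0.000826).

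Chaperones lay slightly above wild type before any heat. Of 32 tested none was called, 19 were higher and 0 lower without overlap, beside 17.3 % and 17.1 % of all genes, and the median was 0.31. HSP70-3 had 158 and 127 CPM in Col-0 and 291 and 236 CPM in fust1 (0.89 ± 0.27, adjusted p = 0.665). SGT1A, a co-chaperone of immune receptors, had 26.1 and 24.4 CPM against 49.8 and 42.5 CPM (0.87 ± 0.23, adjusted p = 0.485). Footprints of the chaperones were higher without overlap for 20 of 32 and lower for 0, beside 25.1 % and 29.6 % of all genes. Of the 16 small heat shock proteins 0 were called, and 4 were higher and 1 lower without overlap, which is near the share over all genes. Their median of 0.48 ranged from 0.00 to 0.85 under the alternatives. Of 14 heat shock factors HSFA2 alone was called, 5 were higher and 1 lower without overlap, and the median was 0.18.

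Hypoxia genes stood on the low side, although 0 of 14 were called. In 8 both fust1 libraries were below both Col-0 libraries and in 0 above (17.1 % and 17.3 % of all genes), with a median of -1.07 (-1.54 to -0.51 under the alternatives). ADH1, alcohol dehydrogenase, had 10.4 and 26.47 CPM in Col-0 and 4.94 and 5.80 CPM in fust1 (-1.78 ± 0.57, adjusted p = 0.961). SUS4, a sucrose synthase, had 4.29 and 18.02 CPM against 1.44 and 2.79 CPM (-2.4 ± 0.83, adjusted p = 1). The Col-0 libraries differed from each other by over 2-fold for both genes. Footprints were called lower for LBD41, PDC1, SAD6 and SUS4, as for 2.07 % of all genes, and higher for 0.

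Root markers were low in the same libraries. Of 17 tested, 0 were called, and 6 were below Col-0 and 0 above it without overlap (17.1 % and 17.3 % of all genes), with a median of -0.54. In footprints 3 of 15 were called lower, beside 2.07 % of all genes. PIN2, an auxin carrier of the root tip, had 11.97 and 15.0 CPM in Col-0 and 3.95 and 7.82 CPM in fust1 (-1.19 ± 0.55, adjusted p = 1). Summed levels of the list were 254 and 269 CPM in Col-0 and 222 and 247 CPM in fust1. At 37 °C the list's RNA median was 0.88 (-0.12 to 1.24 with any one 37 °C library left out). There 4 markers were above Col-0 and 1 below it without overlap, beside 22.2 % and 19.7 % of all genes. In bulk seedlings, fewer cells of a type and less RNA per cell cannot be told apart. The root triterpene clusters separated the 2 fust1 libraries instead, with sums of 7.14 CPM in replicate 1 and 118 CPM in replicate 2, against 59.1 and 51.4 CPM in Col-0. The part of root share in the hypoxia values was not tested.

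Most photosynthesis genes were slightly below wild type. Of 44 nuclear photosynthesis genes 0 were called, 0 were above and 16 below Col-0 without overlap (17.3 % and 17.1 % of all genes), with a median of -0.21. RBCS1A, the small subunit of Rubisco, had 15090 and 13140 CPM in Col-0 and 10620 and 9204 CPM in fust1 (-0.51 ± 0.32, adjusted p = 1). Under the other settings run the list's median ranged from -0.43 to 0.01. Among nitrate genes, NIA1, nitrate reductase, had 247 and 208 CPM against 112 and 129 CPM (-0.92 ± 0.22, adjusted p = 0.337). Footprints of NIA1, NIA2 and the nitrite reductase gene NIR1 fell by 0.56, 0.91 and 0.58 on the log2 scale (adjusted p = 0.016, 0.000267 and 0.023).

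Footprints tell whether an RNA difference also appears on ribosomes. Of the 11 called genes 10 were tested for footprints, and 4 were called in the same direction, namely SQN, LCBK2, ZAT6 and ERF2. Over all genes tested for footprints 2.31 % were called higher and 2.07 % lower. Of the 8 tested genes called higher in RNA, 7 had a footprint log2 change above 0, though several of these changes were small. The exception was AT5G41750 (-0.10 ± 0.51, adjusted p = 0.955), whose RNA change was 2.58. The median footprint change over genes tested in both readouts was -0.02. ZAT6 footprints rose by 0.67 (adjusted p = 0.0205) and those of ERF2 by 0.88 (adjusted p = 0.029), less than the RNA values of 1.48 and 2.50. WRKY33 footprints stood at 8.82 and 9.36 CPM in Col-0 and 9.53 and 10.3 CPM in fust1 (0.12 ± 0.22, adjusted p = 0.838), beside an RNA change of 2.06. SZF1 footprints overlapped, at 25.6 and 20.7 CPM against 25.3 and 31.8 CPM (0.30 ± 0.19, adjusted p = 0.439). The difference between the readouts was tested as translation efficiency, the footprint change minus the RNA change. It was -1.94 for WRKY33 (adjusted p = 0.135) and -1.22 for ERF-1 (adjusted p = 0.599). For AT5G41750 it was -2.69 (adjusted p = 0.557) and for HSFA2 -2.59 (adjusted p = 0.88), so none of these was called.

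Over the fast response list the footprint median was 0.27, where 8 of 34 members were called higher and 0 lower, beside 2.31 % and 2.07 % of all genes. For the salicylic acid list it was 0.07 and for sulfur genes 0.46. Footprints as a whole gave more calls than RNA, 808 in all (4.38 %), of which 426 were higher and 382 lower; with any one of the 4 Ribo-seq libraries at 22 °C left out there were 141 to 357. Of the 423 higher calls tested in both readouts, 321 had an RNA log2 change above 0, beside 50.5 % of genes tested. In 148 the fust1 RNA libraries were above Col-0 without overlap, beside 17.3 % of all genes. Of the 377 lower calls, 270 were below 0 in RNA. In 117 the fust1 RNA libraries were below Col-0 without overlap, beside 17.1 % of all genes. Across the 17816 genes tested in both readouts the log2 changes had a Pearson correlation of 0.298, as a description, since genes are not independent replicates. One gene was called for translation efficiency, as 0.00561 % of those tested. AT5G11330 had 29.9 and 43.2 CPM of RNA in Col-0 and 18.9 and 16.8 CPM in fust1 (-1.04 ± 0.24, adjusted p = 0.29), while its footprints fell from 23.1 and 25.9 CPM to 1.80 and 1.36 CPM (-3.96, adjusted p = 3.39e-12). Without fust1 Ribo-seq replicate 2 no gene was called for translation efficiency, and without fust1 RNA-seq replicate 2 there were 10.

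**Figure D5:**
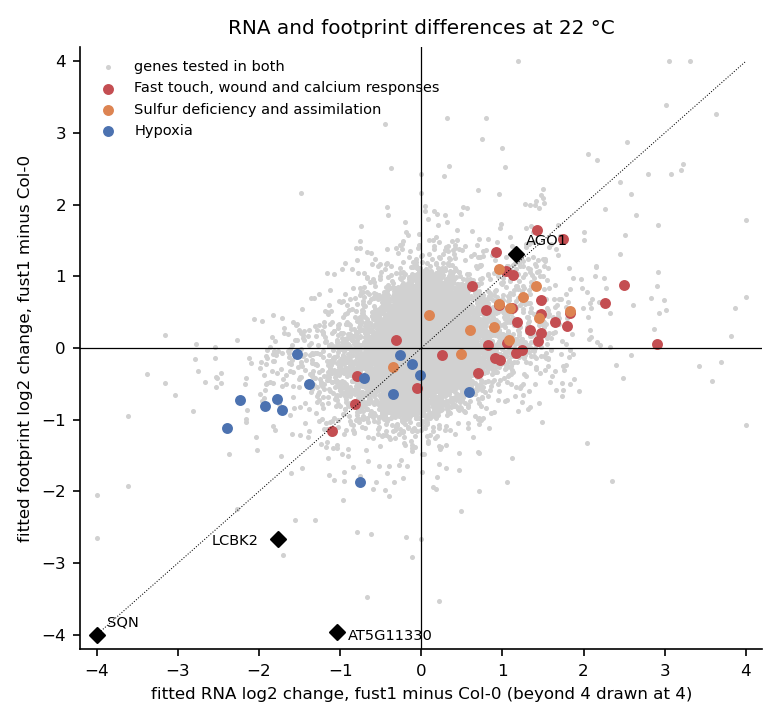
Fitted log2 difference (fust1 minus Col-0, 22 °C) in footprints against that in RNA for genes tested in both, with values beyond 4 drawn at 4; the dotted line marks equal change. Fast response genes (red) and sulfur genes (orange) lie mostly right of the line, hypoxia genes (blue) mostly at lower left, and SQN, LCBK2, AGO1 and AT5G11330 are marked as diamonds.

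Whether the genotype difference at 22 °C held in heated seedlings was asked by comparing it with that at 37 °C. Only the loss of SQN and the rise of AT1G64795 and AT4G12490 (2.12 ± 0.28 at 37 °C, adjusted p = 0.0355) were called at both temperatures, among 10 genes called at 37 °C (0.0517 %), 3 higher (0.0155 %) and 7 lower (0.0362 %). The 2 Col-0 libraries at 37 °C were far apart, and without replicate 1 of that pair 1678 genes were called at 37 °C, without its replicate 2 there were 24, and without fust1 replicate 1 or 2 there was 1. The fast response median was -0.34 at 37 °C (-0.56 without Col-0 replicate 1 and -0.05 without Col-0 replicate 2), against 1.12 at 22 °C. For sulfur genes it was -0.92 (-1.38 to -0.56 with any one 37 °C library left out), and for hypoxia genes 2.67 (1.88 to 2.84). Both fust1 libraries at 37 °C were above both Col-0 libraries in 4 fast genes, 0 sulfur genes and 12 hypoxia genes, beside 22.2 % of all genes, and below in 11, 10 and 0, beside 19.7 %. The SPL genes targeted by miR156 had a median of 1.19 at 37 °C (0.99 to 1.5 with any one 37 °C library left out). Of the 9 tested, 6 were above Col-0 without overlap and 0 below, beside the same shares of all genes. Some members had few counts there, such as SPL9 with 0 and 0 in Col-0 against 2 and 14 in fust1, and SPL4 with 2 and 9 against 14 and 18. The test of the difference between temperatures called 6 genes, 0.031 % of those tested, all of them lower in fust1 at 37 °C relative to 22 °C: ERF-1, ERF2, WRKY33, OPCL1, SHM7 and LSU1. ERF-1 went from 14.1 and 13.2 CPM in Col-0 and 52.4 and 41.8 CPM in fust1 at 22 °C to 25.3 and 25.5 CPM and 10.5 and 12.7 CPM at 37 °C.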

How the data were processed

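The authors deposited raw read counts for each gene; per the submitters' processing notes fastp 0.19.7, STAR 2.7.3a, featureCounts 1.6.2, Bowtie 1.0.1 and TAIR10 were used. Which feature was counted is not stated in those notes. Symbols and neighbours came from a RefSeq table of another release, which held all 27420 nuclear genes. Genes passed filterByExpr (minimum count 10) over all 8 RNA libraries, and the test was edgeR 4.0.16's robust quasi-likelihood F test after TMM scaling, with 4 residual degrees of freedom. Footprints were fitted alike, translation efficiency over all 16 libraries. Standard errors are the log2 change over the root of F. Named genes were called genes with at least 10 CPM, up to 4 per list by smallest p, all SPL genes, SQN, AGO1 and the neighbours of SQN. AT1G64795, AT5G11330, OPCL1, LSU1 and the CBF genes, and the sulfur and hypoxia genes named for footprints, were chosen after their values were seen, as were genes named in the closing section for another readout. The members and the 27 lists (532 entries) were chosen with earlier results of these data known. The procedure was run on counts simulated with the spread estimated from these data, as a check of the direction and size of fitted changes. Since that spread was assumed, the run cannot show how reliable calls from so few libraries are. Other settings were DESeq2 1.42.0, scaling by RLE, genes with any count, nuclear genes, a term for replicate number, a fit of the compared groups alone, and leaving out single libraries.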

Additional observations from a re-analysis of the deposited data

Results flagged for a closer look

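For 6 genes the genotype difference at 37 °C differed from that at 22 °C by the test of that difference (edgeR's quasi-likelihood test, Benjamini-Hochberg adjustment). It was -2.91 on the log2 scale for ERF-1 (adjusted p = 0.0138), -3.62 for ERF2 (0.047), -2.71 for WRKY33 (0.047), -3.19 for OPCL1 (0.0423), -2.87 for SHM7 (0.0391) and -3.01 for LSU1 (0.047). OPCL1, a ligase of jasmonate synthesis, had 14.2 and 16.8 CPM in Col-0 and 43.3 and 37.4 CPM in fust1 at 22 °C, and 56.9 and 47.9 against 20.0 and 9.89 CPM at 37 °C. LSU1, a gene of the low-sulfur response, had 4.60 and 4.23 against 8.05 and 8.38 CPM at 22 °C, and 19.9 and 21.3 against 5.71 and 3.83 CPM at 37 °C. SHM7, a serine hydroxymethyltransferase, had 30.9 and 32.9 against 74.9 and 60.6 CPM, and 72.4 and 84.5 against 28.7 and 16.9 CPM. For these 3 and for ERF-1, ERF2 and WRKY33, both fust1 libraries were above both Col-0 libraries at 22 °C and below both at 37 °C. WRKY33 had 149 and 257 CPM in Col-0 and 143 and 117 CPM in fust1 at 37 °C. All 6 stayed called without Col-0 replicate 1 or 2 at 37 °C, and none did without either Col-0 library at 22 °C, without fust1 replicate 1 at 22 °C or without fust1 replicate 2 at 37 °C. All 6 stayed called without fust1 replicate 2 at 22 °C, and 4 of the 6 without fust1 replicate 1 at 37 °C. With replicate number as a block none of the 6 was called, with adjusted p-values of 0.061 to 0.116.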

How the results depend on the processing

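RLE scaling and nuclear genes alone left all 5 counts of calls within 1.5 times. RNA calls at 22 °C numbered 11, and 83 with DESeq2, 57 without the filter, 98 with only the 4 libraries and 4 with a replicate block; with 1 library left out there were 1 to 67, where leaving out 37 °C libraries was added after seeing the data. Footprint calls numbered 808, 1949 with only the groups compared and 141 to 357 with 1 library left out. RNA calls at 37 °C numbered 10, and 305 with DESeq2, 195 without the filter, 1 with the block, 1 with only the groups compared and 1 to 1678 with 1 left out. For translation efficiency there was 1 call, 18 with DESeq2, 12 with only the groups compared and 0 to 10 with 1 left out. The difference between temperatures gave 6 calls, 178 with DESeq2, 122 without the filter, 0 with the block and 0 to 766 with 1 left out. Deviations of libraries with the same replicate number correlated between -0.26 and 0.21, so the numbers were not taken to pair samples. The causes were not tested. Some genes changed sign with 1 library left out, and their log2 changes then ranged from -0.17 to 0.74 for LOX2, -0.023 to 0.41 for OPR3, -0.85 to 0.0084 for CHS, -0.094 to 0.96 for COL1, -2.24 to 1.68 for THAS1, -5.12 to 0.68 for MRN1, -2.56 to 1.58 for CYP708A2, -0.13 to 0.020 for SPL6, -0.21 to 0.63 for SPL10, -0.090 to 0.86 for SPL15, -0.27 to 0.20 for SPL12, -0.21 to 0.24 for SPL16 and -0.24 to 0.28 for LINC3, which was also 0.0082 with the block. With 2 libraries a group, an exact permutation test cannot give p under 0.333.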

Other observations

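In the remaining gene groups 0 genes were called in RNA at 22 °C. Cell division and histone genes had an RNA median of -0.01 over 17 genes, while their footprints had a median of 0.41, with 13 above Col-0 without overlap and 0 below, beside 25.1 % and 29.6 % of all genes. Genes of dark and sugar starvation had an RNA median of -0.09, and footprints of 4 of 8 were called lower, beside 2.07 % of all genes, among them DIN10 (-0.93, adjusted p = 0.000189), a raffinose synthase gene. Of 26 genes of ABA, drought and cold, 11 were higher in RNA without overlap and 0 lower (17.3 % and 17.1 % of all genes), with a median of 0.46 (0.07 to 0.76 under the alternatives). COR15A, a chloroplast protein of cold acclimation, had 28.5 and 25.1 CPM in Col-0 and 100.4 and 51.4 CPM in fust1 (1.5 ± 0.28, adjusted p = 0.119), and its footprints rose by 1.25 (adjusted p = 0.00302). Medians of the remaining lists were 0.28 for jasmonate signalling, 0.18 for jasmonate synthesis, 0.12 for shoot epidermis and stomata, 0.01 for warm growth, -0.04 for nitrate, -0.06 for the clock, -0.07 for glucosinolates, -0.07 for root triterpenes, -0.10 for flavonoids and -0.19 for iron and phosphate deficiency. Within the glucosinolate list MYB51, a regulator of indole glucosinolates, had 5.98 and 6.67 CPM in Col-0 and 16.7 and 16.8 CPM in fust1 (1.4 ± 0.30, adjusted p = 0.215).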
